A study of Mus musculus with 2 samples.

Results

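Mir320, Mir484, Mir877, Mir1224 and Mir1981 are 5 mouse microRNA (miRNA) genes whose precursors bypass part of the usual maturation route. They were chosen by gene name for how their precursors are made, with earlier results of these data known. They are 5 of the 2202 miRNA genes listed for each library. Mir320 and Mir484 represent precursors made without Drosha, and Mir877, Mir1224 and Mir1981 represent mirtrons. Counts of mature reads do not measure the use of Drosha or Dicer, so these classes are known from earlier work and were not tested. Small RNA was sequenced from total RNA of male mice at 25 days of age, with the left cerebral cortex as the tissue. The strain was B6CASTF1/J, a cross in which C57BL/6J and CAST/EiJ each give one parent. By their labels the 2 libraries are biological replicates of a single group, each from a male with its own number, with no treatment, mutation or control group. Replicate 2 is therefore set against replicate 1 only to show how far levels differ between these libraries.

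Most miRNAs are cut from a long transcript by the nuclease Drosha with its partner Dgcr8, exported, and trimmed by Dicer to a duplex of which one strand enters an Argonaute protein. A mirtron skips the Drosha step because its precursor is a whole short intron, which splicing releases and debranching opens into a hairpin. The precursors of miR-320 and miR-484 also skip it: in mammalian cells they are made as short capped hairpins whose 5′ end is the start of transcription. Loss of Dgcr8 and loss of Dicer differ in postmitotic neurons of the mouse, which drew attention to these genes in brain.

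The precursor hairpins carry the reason for the mirtron name, so they are shown first, from the RefSeq miRNA table for GRCm38.p6, the assembly also called mm10. The table matched 4 of the 5 genes and 968 of the genes in the files. For the mirtrons, capitals mark the first 2 and the last 2 bases, where a spliced intron has its donor GU and its acceptor AG. For Mir484, which is no intron, capitals mark the mature miRNA.
Mir877 precursor: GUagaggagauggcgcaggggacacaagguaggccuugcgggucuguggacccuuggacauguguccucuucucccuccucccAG
Mir1224 precursor: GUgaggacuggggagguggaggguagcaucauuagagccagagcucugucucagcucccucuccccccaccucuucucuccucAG
Mir1981 precursor: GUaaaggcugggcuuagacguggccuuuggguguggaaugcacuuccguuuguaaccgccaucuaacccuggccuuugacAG
Mir484 precursor: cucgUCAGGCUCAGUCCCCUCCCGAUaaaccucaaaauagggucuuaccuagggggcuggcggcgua

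All 3 mirtron hairpins began with GU and ended with AG on their own strand, and the Mir484 hairpin did not. Of the 968 hairpins in the table, 30 (3.10%) had both ends. Among the 16 that fill an intron shorter than 200 bases with no base left over, these 3 included, 15 had both. The annotation placed each mirtron on a whole intron, with no base left over at either end. Mir877 (ENSMUSG00000077931.1; mm10 chromosome 17, 35960730 to 35960814, minus strand) filled intron 12 of 22 of Abcf1, which encodes an ATP-binding cassette protein that acts in translation initiation. Mir1224 (ENSMUSG00000080669.1; chromosome 16, 20604452 to 20604536, plus strand) filled intron 22, the last, of Vwa5b2. Mir1981 (ENSMUSG00000088559.1; chromosome 1, 184822407 to 184822488, minus strand) filled intron 5 of 7 of Marc2, a mitochondrial reductase gene. The 82-base intron was annotated in 6 Marc2 transcripts, the 85-base intron of Vwa5b2 in 4, and the 85-base intron of Abcf1 in 1.

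Mir320 and Mir484 lay in no gene of their own strand, and each started close to the start of a gene transcribed the other way. Mir320 (ENSMUSG00000065528.1; chromosome 14, 70443510 to 70443591, plus strand) began 63 bases from the nearest annotated start of Polr3d, which encodes a subunit of RNA polymerase III. Mir484 (ENSMUSG00000070074.1; chromosome 16, 14159626 to 14159692, plus strand) began 359 bases from a start of Marf1, an RNA-binding protein gene needed for oocyte meiosis. Another Marf1 transcript crosses the locus, and its exon 2 shares 19 bases with Mir484 on the opposite strand. An opposite-strand start within 500 bases upstream was annotated for 52 of the 2202 genes (2.36%), and for none of the 3 mirtrons.

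The mature miRNAs are shown with the seed, bases 2 to 8 from the 5′ end, in capitals, because the seed is what pairs with target mRNAs.
miR-484: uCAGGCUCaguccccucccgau
miR-877-5p: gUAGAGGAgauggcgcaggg
miR-877-3p: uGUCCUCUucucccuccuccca
miR-1224-5p: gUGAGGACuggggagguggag
miR-1224-3p: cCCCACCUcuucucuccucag
miR-1981-5p: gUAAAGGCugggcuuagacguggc
miR-1981-3p: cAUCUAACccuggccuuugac

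These 7 mature sequences had 7 different seeds, and none of the seeds occurred in another mature miRNA of the table. The 5p arms of all 3 mirtrons began at the first base of the intron, so their 5′ ends are the splice donor itself. The 3p arm of miR-1224 ended at the last base of the intron, that of miR-877 ended 1 base before it and that of miR-1981 ended 2 bases before it. The 3p arms of miR-877 and miR-1224 were 90.9% and 85.7% pyrimidine, against 66.7% for miR-1981. The median was 59.1% over 667 3p arms of genes outside short introns, of which 22.2% reached 70% pyrimidine. Over 35 3p arms of short-intron genes the median was 72.0%, and 54.3% reached that share. In the predicted fold, 13 of 20 bases of miR-877-5p, 16 of 21 of miR-1224-5p and 17 of 24 of miR-1981-5p paired with the 3p arm of the same hairpin.

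The hairpins of these genes lay above the median GC content of all hairpins and on both sides of the median predicted stability. GC content was 61.2% for Mir877, 60.0% for Mir1224, 58.2% for Mir484 and 53.7% for Mir1981, against medians of 62.1% over the 35 hairpins of genes that fill a short intron and 51.7% over all 968 hairpins. Mir1981 exceeded 59.1% of all hairpins in GC content. Predicted folding energy per 100 bases was −50.4 kcal/mol for Mir1224, −42.9 for Mir877, −37.0 for Mir1981 and −36.7 for Mir484, against a median of −40.5. More negative values are more stable, so Mir1224 and Mir877 lay on the stable side of the median and the other two on the unstable side. The Mir1224 hairpin was more stable per base than 84.8% of hairpins and the Mir484 hairpin more than 33.8%.

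**Figure D1:**
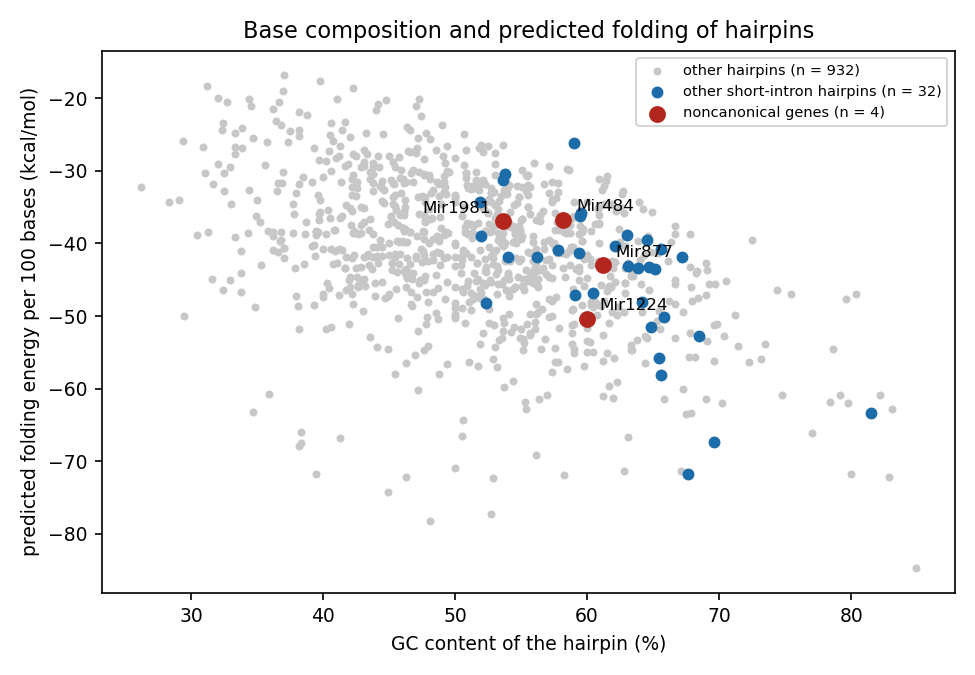
Each point is 1 hairpin of the RefSeq table, with GC content (%) on the x axis and predicted folding energy per 100 bases (kcal/mol) on the y axis. Red points are Mir484, Mir877, Mir1224 and Mir1981, blue points the other hairpins that fill a short intron and grey points all others. The 4 red points sit between 53.7% and 61.2% GC, inside the cloud of the other hairpins.

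The libraries held 4447390 counts in replicate 2 and 2388379 in replicate 1 on the genes' own strand, 1.86 times as many in replicate 2. Levels are given as counts per 1000000 of these totals (CPM), as mean ± SD of n = 2, and 3 counts correspond to 0.675 CPM in replicate 2, against 1.26 CPM in replicate 1. A chi-square test found more than sampling noise between them (176676, with 760 degrees of freedom), and each was kept as its own sample. The tissue label was checked on marker miRNAs. All 3 neuronal markers were detected, at a summed 63462 CPM in replicate 2 and 77560 in replicate 1. Of these, Mir132 was lower in replicate 2 (log2 ratio −0.68), while Mir128-1 (0.70) and Mir137 (0.34) were higher. Red-cell markers summed to 144 CPM in replicate 2 and 134 in replicate 1. The liver marker Mir122 was at 57.6 CPM in replicate 2 and 54.0 in replicate 1. Of 3 muscle markers, Mir206 was at 22.3 CPM in replicate 2 and 13.4 in replicate 1. Mir1a-1 and Mir133a-1 were at 0. These are numbered copies, and reads that match several loci were not given to genes, so a count of 0 cannot show that muscle RNA was absent. Markers of other brain cells were higher in replicate 2 by the sums of their lists. Single genes differed: oligodendrocyte Mir338 (log2 ratio −0.03) and Mir155 of the microglia and leukocyte list (−0.45) were lower in replicate 2. The microglia and leukocyte markers summed to 1626 CPM in replicate 2 and 1504 in replicate 1. Endothelial Mir126a was at 22504 CPM in replicate 2 and 10782 in replicate 1, the astrocyte markers at a summed 31089 CPM in replicate 2 and 20653 in replicate 1, and the oligodendrocyte markers at 3551 CPM in replicate 2 and 2718 in replicate 1. Their part in the values below was not tested.

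All 5 genes were expressed in both libraries, with means above the median of the genes that reached 10 counts in each. Together they held 21598 counts in replicate 2 and 14092 in replicate 1. Those counts were 0.486% of replicate 2, with an exact 95% interval (Clopper-Pearson) of 0.479 to 0.492%. In replicate 1 they were 0.590%, with an interval of 0.580 to 0.600%. Their summed level was 5378 ± 738 CPM. These intervals cover counting error only, because the labels name no molecular identifiers and PCR copies of 1 molecule can be counted again. All 5 had at least 10 counts in each library, as did 392 of the 2202 genes, which are called measured here. All 5 also had means above the median of the measured genes, 121 CPM. Mir320 exceeded 84.9% of the measured genes and Mir484 77.6%, against 68.6% for Mir1981, 61.2% for Mir1224 and 60.5% for Mir877. The opposite strand had 0 counts at all 5 genes in both libraries, so counting both strands together left their counts as they were.

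Mir320 and Mir484 were the most abundant of the 5 genes. Mir320 had 8447 counts in replicate 2 and 7388 in replicate 1, which is 1899 and 3093 CPM, for a mean of 2496 ± 844 CPM. It was the highest of the 5 in both libraries, ranking 78 in replicate 2 and 53 in replicate 1 among all genes. Mir484 had 7864 counts in replicate 2 and 3375 in replicate 1, which is 1768 and 1413 CPM, for a mean of 1591 ± 251 CPM. It ranked 82 in replicate 2 and 87 in replicate 1. Mir320 was 1.07 times as high as Mir484 in replicate 2 and 2.19 times in replicate 1, so their order held in both libraries but the gap nearly closed in replicate 2.

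The 3 mirtrons formed a lower tier. Mir1981 had 2408 counts in replicate 2 and 1668 in replicate 1, which is 541 and 698 CPM, for a mean of 620 ± 111 CPM. It was above the other two mirtrons in each library. Mir1224 had 1626 counts in replicate 2 and 758 in replicate 1, which is 366 and 317 CPM, for a mean of 341 ± 34.1 CPM. Mir877 had 1253 counts in replicate 2 and 903 in replicate 1, which is 282 and 378 CPM, for a mean of 330 ± 68.1 CPM. The ranges of Mir1224 and Mir877 overlapped and their order differed between the libraries, so these neighbours did not differ beyond their spread. No other pair of the 5 had overlapping ranges.

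The summed level of Mir320 and Mir484 was 3.09 times that of the 3 mirtrons in replicate 2 and 3.23 times in replicate 1. A small-RNA read covers a whole mature miRNA, so levels were not divided by length. Per 100 annotated bases the 5 genes, which span 67 to 85 bases, kept the same order. The files count per gene, so the 5p and 3p arms of a hairpin cannot be told apart. In bulk tissue, fewer cells of a type and less RNA per cell cannot be told apart either.

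**Figure D2:**
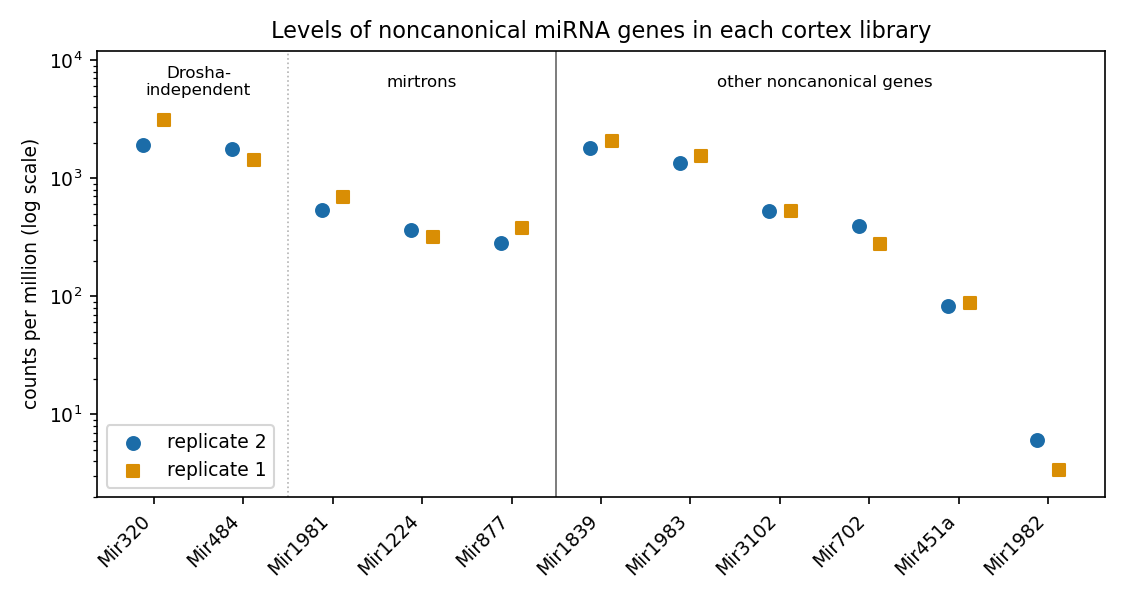
CPM on a log axis for each library, with replicate 2 as circles and replicate 1 as squares, for the 5 genes and 6 other noncanonical miRNA genes. Mir320 and Mir484 lie between 1413 and 3093 CPM, above the 3 mirtrons at 282 to 698 CPM.

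Between the libraries, Mir320 moved most of the 5 and the mirtrons went both ways. In an exact conditional binomial test on counts, two-sided and Benjamini-Hochberg adjusted over the 392 measured genes, all 5 genes passed 0.05. So did 56.9% of the measured genes, 34.2% as higher and 22.7% as lower in replicate 2. The count of 5 is read against that background, and the test covers counting error between 2 libraries, not a condition. Mir320 was lower in replicate 2 (log2 ratio −0.70, counting SE 0.023, adjusted p = 1.16e-200 in the exact test), as were Mir877 (−0.42, SE 0.063, adjusted p = 8.01e-11) and Mir1981 (−0.37, SE 0.046, adjusted p = 9.31e-15). Mir484 was higher in replicate 2 (log2 ratio 0.32, SE 0.030, exact adjusted p = 1.17e-27). Mir1224 was higher by 0.20 (SE 0.063, exact adjusted p = 0.0026), a call that ended with DESeq2 size factors (adjusted p = 0.0539) and with all mapped reads as the total (adjusted p = 0.322).

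These differences were ordinary in size for this pair of libraries. Mir320 alone differed by over 1.5-fold, as did 27.6% of the measured genes, and 21.9% of measured genes had a larger log2 ratio in either direction. For Mir1224 that share was 67.9%. The median log2 ratio of the 5 genes was −0.37, against 0.06 over the measured genes. Log2 ratios had, over the 242 genes that reached 100 counts in both libraries, an SD of 0.559. In edgeR's exact test, which takes a common dispersion from both libraries, none of the 5 passed and none had an unadjusted p under 0.05. That dispersion came from the same 2 libraries that the test compares, so a miss cannot show that a gene did not differ. In that test 3 of the 392 genes passed (0.765%) and 19 had an unadjusted p under 0.05. Unmapped reads were 18.2% of all reads in replicate 2, against 31.6% in replicate 1, and multimapping reads were 52.8% of mapped reads in replicate 2, against 48.6% in replicate 1. Their part in these differences was not tested.

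**Figure D3:**
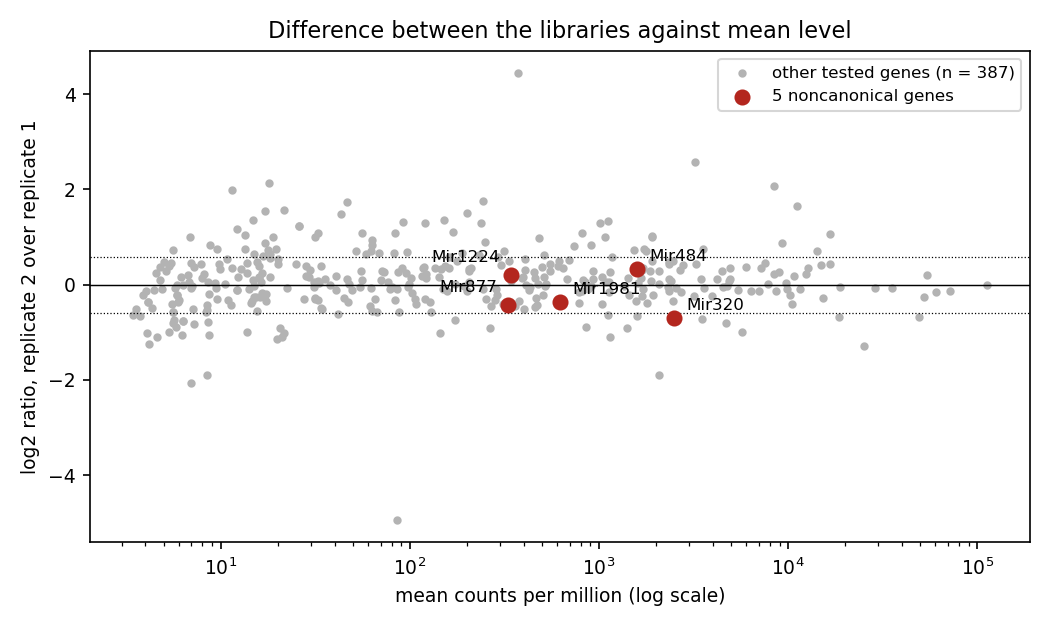
Log2 ratio of replicate 2 over replicate 1 against mean CPM (log axis) for the 392 measured genes, with the 5 noncanonical genes in red and dotted lines at 1.5-fold. Mir484 and Mir1224 lie above 0, and Mir877, Mir1981 and Mir320 below 0, with Mir320 just past the lower dotted line at −0.70.

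Reads that match several loci were not given to genes in these files, so sequence copies matter for these levels. The longest stretch that Mir484, Mir877, Mir1224 or Mir1981 shared with another hairpin of the table was 11, 11, 12 and 14 bases. None of their 7 mature sequences occurred in a GENCODE transcript of another gene. Mir320 was not part of these checks. Matches elsewhere in the genome were not analysed here. The reference is that of C57BL/6J, and reads of the CAST/EiJ allele that mismatch it were not tested.

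Among all miRNA genes that fill a short intron, the 3 mirtrons stood near the top. They and the list were chosen with earlier results of these data known, so their places describe these genes and test nothing. An annotated span that began and ended within 15 bases of the ends of an intron shorter than 200 bases was found for 42 genes (1.91% of the files), 22 of them with no base left over. Of the 42, 33 had a count in either library and 15 were measured. By mean level Mir1981 ranked 1, Mir1224 ranked 3 and Mir877 ranked 5 in this list. The 3 genes held 47.2% of its counts in replicate 2 and 54.9% in replicate 1. The median level of the list was 1.63 CPM, and 9 of the 42 genes had no count at all.

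Of the other leading genes of the list, Mir3102 and Mir702 stood among the 3 mirtrons, and Mir7080 and Mir6944 below them. Mir3102, which fills an intron of Arhgef17, was at 530 CPM in replicate 2, against 523 CPM in replicate 1. It lay below Mir1981 and above Mir1224 and Mir877 in both libraries. Mir702, in the intron of the collagen-modifying enzyme gene Plod3, was at 393 CPM in replicate 2, against 279 CPM in replicate 1, so its range lay across that of Mir1224. Its annotated hairpin began 9 bases before the intron and ended 2 bases short of its end. Mir7080, in an intron of Cpne7, followed at 163 CPM in replicate 2, against 130 CPM in replicate 1. Mir6944, in an intron of the neuronal actin-binding protein gene Dbn1, was at 79.1 CPM in replicate 2, against 81.6 CPM in replicate 1. Both lay below all 3 mirtrons of the set in both libraries. Of the 15 measured genes 4 passed the test as higher and 2 as lower in replicate 2, where 34.2% and 22.7% of all measured genes did. Both lower ones were Mir877 and Mir1981. The 15 had a median log2 ratio of 0.01 against 0.06 over all measured genes.

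**Figure D4:**
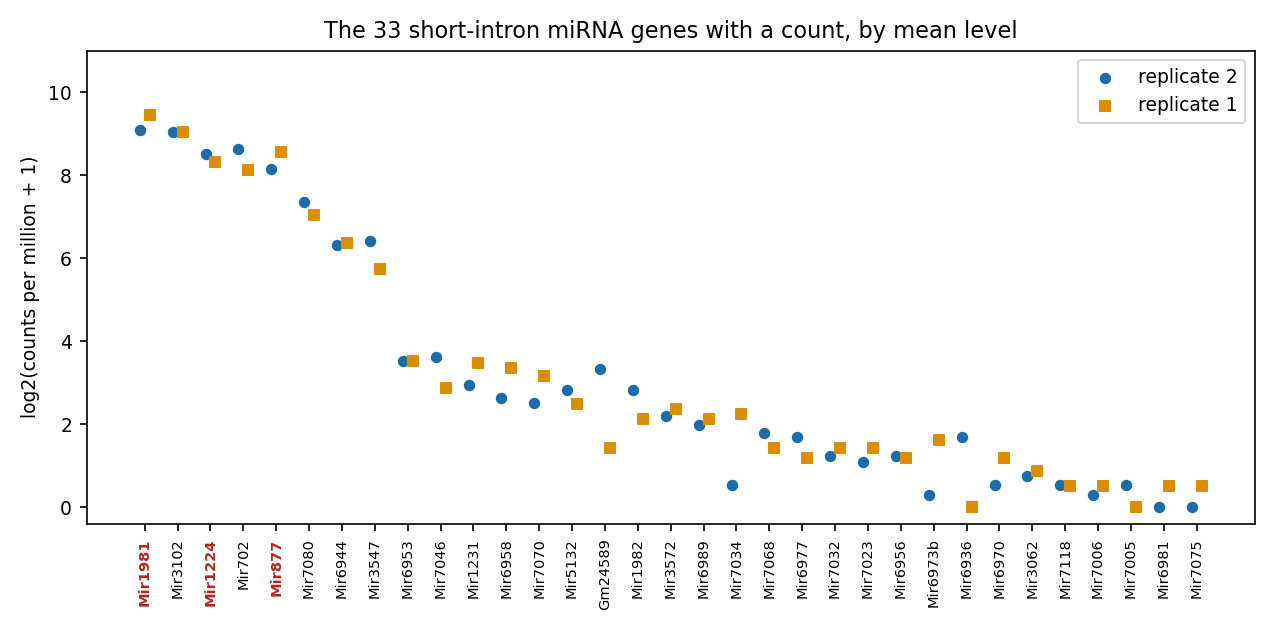
Levels as log2(CPM + 1) in replicate 2 (circles) and replicate 1 (squares) for the 33 short-intron genes with a count, in order of mean level. The names of Mir1981, Mir1224 and Mir877 are in red, and they stand at places 1, 3 and 5.

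Other noncanonical miRNA genes reached the same range. Of 7 listed symbols 6 were in the files, all with counts and 5 measured, at a summed 4140 CPM in replicate 2, against 4506 CPM in replicate 1. Mir1839, whose locus GENCODE also annotates as a small Cajal body RNA on the same strand, was at 1791 CPM in replicate 2, against 2067 CPM in replicate 1. Mir1983, derived from a transfer RNA, was at 1336 CPM in replicate 2, against 1546 CPM in replicate 1. The counts of these 2 genes are uncertain, because their reads cannot be told from those of the overlapping or repeated RNA. The range of Mir1983 overlapped that of Mir484, and both genes lay above all 3 mirtrons of the set in both libraries. Mir451a, the red-cell miRNA that Argonaute 2 cuts in place of Dicer, was at 83.0 CPM in replicate 2, against 87.9 CPM in replicate 1, below all 5 genes. Of the 5 measured, 1 passed as higher (Mir702) and 2 as lower (Mir1839 and Mir1983) in replicate 2, so 3 of 5 were called where 56.9% of all measured genes were. The 5 had a median log2 ratio of −0.08 against 0.06 over all measured genes.

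The measured genes nearest in level were sought for each of the 5, by Euclidean distance over the log2(CPM + 1) levels of the 2 libraries. Mir484 was nearest to Mir431 (distance 0.108) and Mir671 (0.115). Mir1224 was nearest to Gm23450 (0.0855) and Mir702 (0.212), another gene of a short intron. Mir877 was nearest to Mir3475 (0.133) and Mirlet7a-1 (0.180). Mir320 had no neighbour as close, with Mirlet7f-2 at 0.259 and Mir676 at 0.412. Mirlet7a-1 and Mirlet7f-2 are numbered copies of let-7 genes, whose own levels are uncertain where reads match several loci. Mir1981 had Mir3099 at 0.393 and Mir134 at 0.410. With 2 libraries these distances describe similar levels in these animals and nothing more.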

How the data were processed

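Per the readme text in the labels, the authors quantified miRNA genes of GENCODE M21 on mm10, and deposited raw counts of reads. Which aligner and counter they ran is not given in the sources used here. Of 3 columns of counts, read from the values as both strands, own strand and opposite strand, the own-strand counts were used. The 4 entries that name no gene stayed out of totals and tests: of all reads, 18.2% were unmapped in replicate 2 and 31.6% in replicate 1, and reads in no feature were 6.91% of those mapped in replicate 2, against 7.36% in replicate 1. Positions, hosts and introns came from GENCODE M21 and are 1-based. Sequences came from the RefSeq tables (GRCm38.p6), and folds from RNAfold 2.7.2.

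CPM and log2 ratios were computed here, with a pseudocount of 1 for log2 levels. With 1 group, edgeR's quasi-likelihood test has no contrast, so an exact conditional binomial test, itself tested on simulated data, was run on genes that reached 10 counts in both libraries. Alternatives used edgeR 4.0.16 (TMM, exact test) and DESeq2 1.42.0 (size factors). Python 3.11.15 and SciPy 1.17.1 were used. The members, the lists, the naming rule and the tests were chosen with earlier results of these data known. Named genes are the 5 members, the 2 measured genes nearest in level to each, and the 4 highest of each list. Mir451a falls outside that rule, and was chosen after its values were seen.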

Additional observations from a re-analysis of the deposited data

How the results depend on the processing

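The 5 genes kept the direction of their log2 ratios under counts of both strands, TMM factors and DESeq2 size factors. They also kept it with a total without the most abundant gene and with all mapped reads as the total. Counting both strands changed only the totals for these genes. The edgeR exact test used the same counts and totals, so its log2 ratios could not change direction. The summed level of the 5 genes was 2278 CPM with all mapped reads as the total, against 5378 CPM, by construction of the larger total. Leaving out a replicate gave 4856 to 5900 CPM. The count of genes past the test, 223 of 392, was 194 to 232 under the other count minimums, strands, scalings and totals. The share did change with the minimum. With at least 100 counts in each library 194 of 242 genes passed, and with at least 1 count in either library 232 of 761. The count was 3 of 392 in edgeR's exact test, where the spread allowed for comes from the same 2 libraries. Mir1224 missed the threshold with DESeq2 size factors (log2 ratio 0.14) and with all mapped reads (0.08). A change of scaling shifts the log2 ratios of all measured genes by the same amount, by construction. DESeq2 size factors shifted their median by −0.07, and all mapped reads as the total shifted it by −0.13. That last total changed the split of calls to 107 higher and 119 lower in replicate 2, against 134 and 89. The levels per 100 bases were added after seeing the data. No test was possible without a replicate, since 1 library is left. No paired analysis was possible because the labels give 1 group. A count of 0 on the opposite strand still allows 0.675 CPM there in replicate 2, against 1.26 CPM in replicate 1.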

Other observations

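Levels in the short-intron list dropped after its first 8 genes. These 8 leading genes were at 68.3 CPM or more on average, down to Mir3547 in an intron of Baiap3, and the next, Mir6953 in an intron of Grina, was at 10.5 CPM. Mir3547, Mir6953 and Mir1982 were chosen after their values were seen. Mir3547 was at 83.9 CPM in replicate 2, against 52.8 CPM in replicate 1, a log2 ratio of 0.67 (exact binomial test, adjusted p = 9.79e-06). That test passed 56.9% of the measured genes, and in edgeR's exact test Mir3547 had an unadjusted p of 0.314. Mir1982, which fills an intron of the antizyme gene Oaz1, had 27 counts in replicate 2 and 8 in replicate 1, and was the only one of the 6 other noncanonical genes that was not measured.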
